A study of Mus musculus with 80 samples.

Results

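The tiles described here are autosomal windows of 500 bp that were partly methylated in mouse embryonic stem cells (ESCs) of the line E14 grown in serum. They were chosen by their level in reduced representation bisulfite sequencing (RRBS), a method that reads cytosine methylation in CpG-rich fragments. A tile was measured when each of the 12 E14 RRBS libraries held 20 or more calls at 3 or more positions in it, a call being 1 read of 1 cytosine. Of 55777 measured tiles, 28678 had a mean level under 10% in serum, 21609 had 40% or more, and the remaining 5490 lay from 10% to under 40%. These 5490 are called the members below. Their serum level is therefore given by the choice, and every comparison of E14 with its own serum is a description without a test.

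The study asked how ESCs lose DNA methylation when they move from serum to 2i, and which enzymes take part. All lines were first grown with LIF in medium with fetal calf serum. They then went into 2i, which is serum-free N2B27 medium with LIF, the MEK inhibitor PD0325901 and the GSK3 inhibitor CHIR99021. E14 (wild type, background strain E14) was sampled in serum and after 24, 48, 72, 96 and 168 h of 2i, with 2 samples at each time. UHRF1 WT (wild type) and UHRF1 KO (UHRF1-/-), both of background strain E14, were sampled at the same times with 2 samples each, except that UHRF1 WT serum had 1 usable sample. TET WT (wild type) and TET TKO (TET1/2/3-/-), of background strain C57/129/FVB, were sampled in serum and after 48, 96 and 168 h, with 2 samples each except 1 for TET WT at 168 h. ChIP-BS, bisulfite sequencing of chromatin bound by an antibody to dimethylated lysine 9 of histone H3 (H3K9me2), covered wild-type E14 in serum and in 2i. Each medium had 2 libraries of bound chromatin and 2 of input. The labels give no duration for this 2i, which the study describes as long-term, and it is not placed in the time course. Uhrf1 was removed by a tamoxifen-inducible Cre recombinase 48 h before the experiment, so UHRF1 KO cells in serum had lost the gene only recently, whereas the Tet genes were deleted constitutively. Nothing in the labels says that samples with the same name come from separate cultures, so the spread between them may be technical.

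Methylation of a CpG is copied to the new DNA strand after each replication by DNMT1, which UHRF1 brings to half-methylated sites. DNMT3A and DNMT3B add methylation where there was none, and TET enzymes oxidise methylated cytosine, which leads to its loss. Intermediate levels in a bulk culture arise where cells, alleles or neighbouring CpGs differ, and edges of CpG islands are a familiar place for them. A level over many cells cannot tell a tile that differs between cells from a tile that differs between its CpGs in every cell, and single reads were not analysed here.

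The RRBS libraries held 9.58M to 30.7M calls in E14, 3.21M to 43.6M in the UHRF1 lines and 5.59M to 43.7M in the TET lines. With the same floor of calls and positions in every sample of a set, 1342 members were measured in the 23 usable UHRF1 libraries and 3448 in the 15 TET libraries. Of the 21609 tiles of 40% or more in E14 serum, 1462 were measured in the UHRF1 libraries and 9566 in the TET libraries. Shares and levels of that class in those lines refer to these tiles only. The E14 RNA-seq libraries gave the ESC markers Pou5f1, Sox2, Nanog, Zfp42, Esrrb and Dppa5a at log2 values of 5.68 to 11.3, against a median of -1.10 over all 25965 rows. Markers of primitive endoderm and trophoblast reached no more than 1.46. The 4 fibroblast markers reached up to 2.80, for Col1a1, above the 75th percentile of 2.51 over all rows and below each of the ESC markers. No expression data were analysed for the other lines.

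The members were poorer in measured positions than unmethylated tiles. A member held a median of 8 positions, with quartiles of 5 and 13, against 23 in tiles under 10% and 6 in tiles of 40% or more. Low levels prevailed among them, since 2347 lay from 10% to under 20%, 1592 from 20% to under 30% and 1551 from 30% to under 40%. On single autosomes they made up between 8.50% of the tiles (chromosome 3) and 11.2% (chromosome 11).

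At the edges of the range the division is one of degree. The tile chr1:50983001-50983500 was left out with a serum mean of 9.996%, and chr2:74497501-74498000 was kept with 10.01%. At the upper edge chr7:38985501-38986000 was kept with 39.99% and chr1:33673501-33674000 was left out with 40%.

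Members often lay beside other methylation classes. There were 2548 pairings of a member with a measured tile that directly adjoined it. The adjoining tile was under 10% in 48.0% of them, a member itself in 37.6% and at 40% or more in 14.4%. A tile with members on both sides was counted for each of them. For tiles under 10% the share of adjoining members was 4.18%, and for tiles of 40% or more it was 12.2%. Both sides were measured for 270 members. Of these, 48 (17.8%) had a tile under 10% on one side and a tile of 40% or more on the other. At least 1 adjoining member was found for 183 (67.8%). The corresponding shares were 1.77% and 10.6% for tiles under 10%, and 10.5% and 19.4% for tiles of 40% or more. RRBS skips most of the genome, so these counts describe only places where fragments happen to adjoin.

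In E14 the members did not lose methylation at first. The median over members was 21.8% and 22.8% in the 2 serum samples, 32.5% and 30.8% at 24 h, and 16.3% and 16.3% at 48 h. It was 14.06% and 14.02% at 72 h, 9.59% and 9.63% at 96 h, and 3.48% and 3.72% at 168 h. Both 24 h samples thus lay above both serum samples, and both samples of each later time lay below them. The mean of the 2 medians was 22.3% ± 0.692 (SD, n = 2) in serum, the value used for the choice, and 31.6% ± 1.22 at 24 h.

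**Figure D1:**
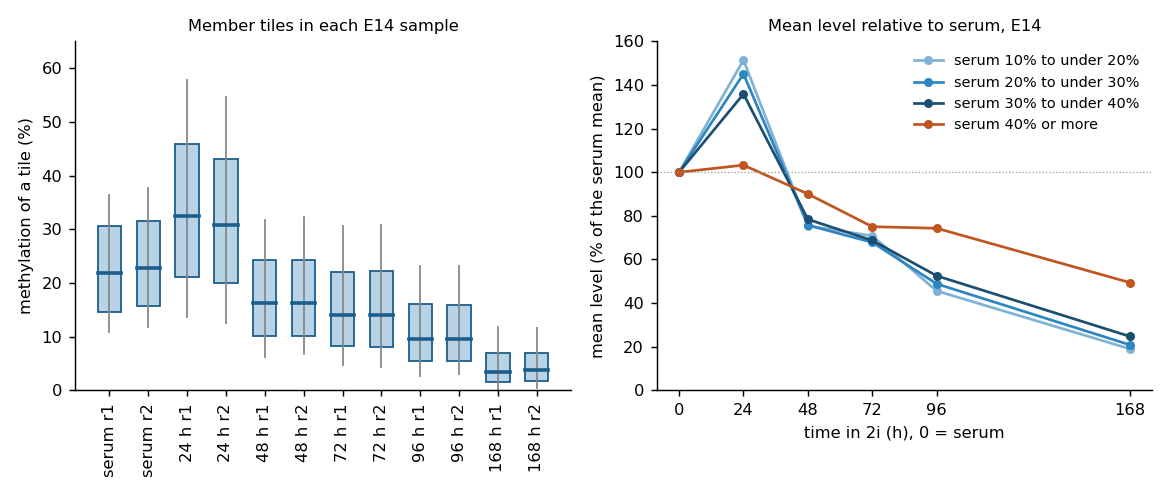
Left, methylation of the 5490 members in each E14 sample in percent, with the median as a thick line, quartiles as a box and the 10th and 90th percentiles as a thin line (r1 and r2 are the 2 samples of a time). Right, mean level over tiles as a percent of the serum mean against hours in 2i, for members in 3 serum classes and for tiles of 40% or more. The members stand at 136% to 151% of serum at 24 h and at 19.01% to 24.7% at 168 h, while the more methylated tiles go from 103% to 49.4%.

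The 24 h level was above serum in all 3 serum classes of members. Relative to the serum mean it was 151% for members of 10% to under 20%, 145% for those of 20% to under 30% and 136% for those of 30% to under 40%. Tiles of 40% or more stood at 103% of serum at the same time, and tiles under 10% at 132%, with means of 1.69% in serum and 2.24% at 24 h. The median over tiles under 10% was not higher at 24 h, with 0.609% ± 0.0358 (SD, n = 2) against 0.837% ± 0.411 in serum. Of the 5490 members, 4481 had their highest mean at 24 h and 789 in serum, and in 3193 both 24 h samples exceeded both serum samples (25.9% of all tiles did so).

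The 24 h libraries were shallower over members than those of serum, with medians of 52 and 71 calls per tile against 110 and 109. When only positions with 5 or more calls in all 12 samples were used, 4201 members remained, at 28735 positions. Their medians were 21.3% and 22.2% in serum and 31.9% and 30.6% at 24 h, so the difference was present at the same cytosines too. The part of depth in the remaining difference was not tested.

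Loss after 24 h was tested tile by tile with a quasi-binomial fit, in contrasts between times of 2i. The serum samples that chose the members were no arm of these contrasts but shared in the estimate of the spread, and with the samples of 24 h and 168 h only, 4974 members were called in place of 4995. A tile was called when its Benjamini-Hochberg adjusted p was under 0.05 and the pooled difference reached 10 percentage points. Relative to 24 h, 2283 members had fallen at 48 h (41.6%, where 12.5% of all tiles were called lower), 3158 at 72 h (57.5% against 31%) and 4069 at 96 h (74.1% against 32.8%). At 168 h, 4994 members had fallen (91.0%, where 47.3% of all tiles were called lower), with a median difference of -26.3 points against -8.33 over all tiles. The libraries of the 2 times did not overlap in 5372 members (67.4% of all tiles were lower without overlap).

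All tiles include the many unmethylated ones that have nothing to lose, so tiles of 40% or more are a closer comparison. Among those, 93.1% were called lower at 168 h than at 24 h. Their mean at 168 h was 47.9% of the mean at 24 h, whereas for members it was 15.4%. From 96 to 168 h alone, 963 members fell by the same rule (17.5%, where 27.7% of all tiles were called lower). Of tiles of 40% or more, 67.1% were called lower in that step. The median over members at 96 h was already below the 10 points that a call requires.

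The 3 members named for the largest fall had stood at over 75% at 24 h, and falls of that size require a high level at that time. At chr1:23955501-23956000 the serum samples read 37.0% and 41.2%, the 24 h samples 88.9% and 75.9%, and the 168 h samples 6.94% and 3.45%. At chr4:133992501-133993000 the levels were 41.3% and 36.5% in serum, 78.3% and 77.2% at 24 h, and 0% and 5.71% at 168 h. At chr5:36656001-36656500 they were 30.9% and 29.3%, then 78.8% and 76.7%, then 2.78% and 3.09%. The pooled difference between 24 and 168 h was -76.9, -75.7 and -74.8 points. Their 48 h samples were far below those of 24 h, at 20.3% and 25.5% in the tile on chromosome 4 and at 32.1% and 30.2% in the tile on chromosome 5.

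A single member was called higher at 168 h than at 24 h, as were 0.00179% of all tiles. At chr6:4697001-4697500 the serum samples read 30.8% and 42.1%, the 24 h samples 24.2% and 25.9% and the 168 h samples 45.1% and 35.96%. The difference was 14.03 points with an adjusted p of 0.0489 in the quasi-binomial fit, and the call was lost in limma on log2 ratios (adjusted p 0.107) and with samples of the 2 times only (0.0564). It was also lost without either 24 h sample (0.192 and 0.123) and without 168 h replicate 1 (0.158).

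By 168 h, 4795 members had a mean under 10%, 3435 under 5% and 605 under 1%, while 693 were still from 10% to under 40% and 2 had reached 40% or more. Relative to serum, 3145 members kept under 20% of their level (57.3%), which 11.4% of tiles of 40% or more did. At the other end, 44 members kept 80% or more (0.801%), against 6.90% of the more methylated tiles.

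The 44 members that kept their level in E14 were looked at in the other lines. In the UHRF1 lines 9 of them were measured. UHRF1 WT had medians of 14.4% in its 1 serum sample, 36.4% and 38.4% at 24 h, and 25.2% and 27.5% at 168 h. All members had 4.84% and 4.52% at 168 h. UHRF1 KO had 33.3% and 28.8% in serum, and 18.4% and 18.3% at 168 h. In the TET lines 23 were measured, and both genotypes were lower at 168 h than in serum. TET WT had 21.4% and 17.8% in serum and 12.3% at 168 h, where all members had 1.67%. TET TKO had 30.6% and 32.2% in serum, and 20.4% and 18.2% at 168 h. They were chosen by their E14 values alone, and with so few tiles the levels are a description.

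Within tiles, most positions of members were at intermediate levels, but most members also held at least 1 position under 10%. The levels of positions are the E14 serum values that chose the tiles, so they are a description. Positions with 10 or more calls in each serum sample were used, and 4705 members held at least 3 of them. Each position is a cytosine on 1 strand, so both strands of a CpG count as neighbours, and positions on the same reads are not independent. Of 34203 such positions 74.3% lay from 10% to under 60%, 23.8% under 10% and 1.89% at 60% or more. Of the 4705 members, 2719 (57.8%) held a position under 10% and 481 (10.2%) a position of 60% or more. In members with a mean a little above 10%, counting error alone can put a position under it. The share that counting alone would give was not computed.

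A member that held both a position under 10% and a position of 60% or more was uncommon. There were 339 of them among the 4705 (7.21%, 95% Wilson interval 6.50% to 7.98%), against 7.63% of tiles of 40% or more and 0.0780% of tiles under 10%, while in 1844 members (39.2%) every position lay from 10% to under 60%. Positions of a member had a median standard deviation (SD) of 9.93 points, where counting alone would give 6.81. The SD was over 2 times that from counting in 25.3% of members and in 18.04% of tiles of 40% or more. The share of tiles with both extremes depended on the depth asked for, being 10.0% with 5 calls per position and 4.03% with 20.

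The 2 members named for the largest SD held unmethylated and methylated positions within a few bases of each other. In chr1:154233501-154234000 the level was 0% to 3.13% at 20 positions and 84.4% to 100% at 6 positions, with an SD of 39.5 points where counting gives 6.85. The 6 methylated positions lay between bases 136 and 172 of the tile, with 2 positions near 0% among them. In chr5:33994501-33995000 the levels were 0% to 5.00% at 7 positions, 45.0% to 47.5% at 5, and 61.7% to 93.3% at 3, with an SD of 32.2 points.

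**Figure D2:**
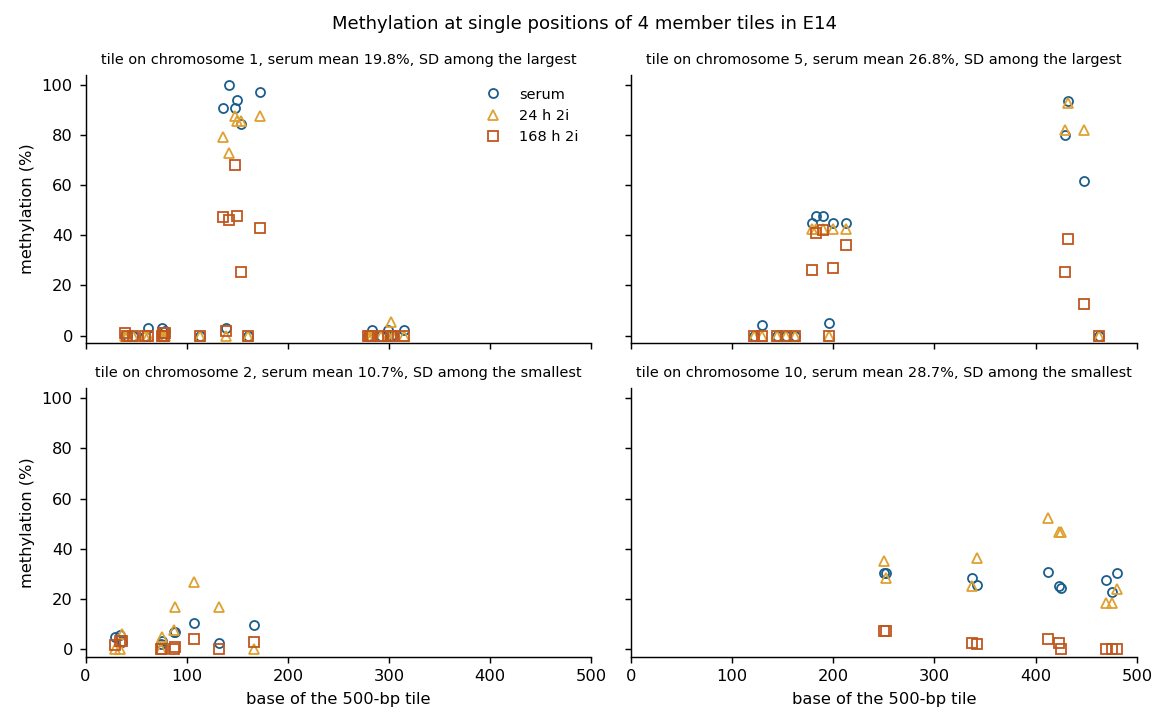
Methylation in percent at single positions of 4 members in E14, against the base within the 500-bp tile. Circles are the mean of the 2 serum samples, triangles of the 24 h samples and squares of the 168 h samples, at positions with 10 or more calls in each serum sample. The upper tiles hold positions from 0% to over 90% in serum, and the lower tiles, which were chosen for the smallest spread, hold positions within 10 points of each other.

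The 2 members named for the smallest SD held positions of similar level, which follows from that choice. In chr10:79857501-79858000 the 10 positions lay between 22.6% and 30.9% in serum with an SD of 2.99 points, below the 7.93 that counting alone gives. Their mean was 33.1% at 24 h and 2.55% at 168 h. In chr2:26460001-26460500 the 10 positions lay between 2.08% and 10.5%, with the tile's mean of 10.7% coming also from less deeply read positions.

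At the level of single positions, too, the 24 h means were above those of serum, and the 168 h means far below. Over positions with 10 or more calls in all serum, 24 h and 168 h samples, those under 10% in serum (2623) had a mean of 5.07%, 11.4% and 1.72% at the 3 times. Those from 10% to under 40% (7668) had 22.4%, 32.8% and 4.52%. Those of 60% or more (196) had 69.5%, 74.8% and 25.3%. Positions in the lowest class were chosen by low serum values, so their higher mean at 24 h is partly given by that choice.

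In the UHRF1 lines the members were lower without UHRF1 from serum to 96 h. In UHRF1 WT the median over 1342 members was 34.7% in the serum sample, 29.1% and 28.9% at 24 h, and 25.9% and 26.2% at 48 h. It was 19.7% and 19.8% at 72 h, 13.6% and 13.4% at 96 h, and 4.84% and 4.52% at 168 h. UHRF1 WT was thus lower at each later time, and its 24 h samples were below the serum sample where those of E14 were above.

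UHRF1 KO started lower. Its medians were 23.5% and 24.2% in serum, 16.9% and 16.7% at 24 h, and 11.9% and 11.7% at 48 h. They were 9.74% and 8.88% at 72 h, 7.69% and 7.44% at 96 h, and 11.1% and 12.2% at 168 h. Every KO sample from serum to 96 h was below every WT sample of its time, and both KO samples at 168 h were above both WT samples.

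**Figure D3:**
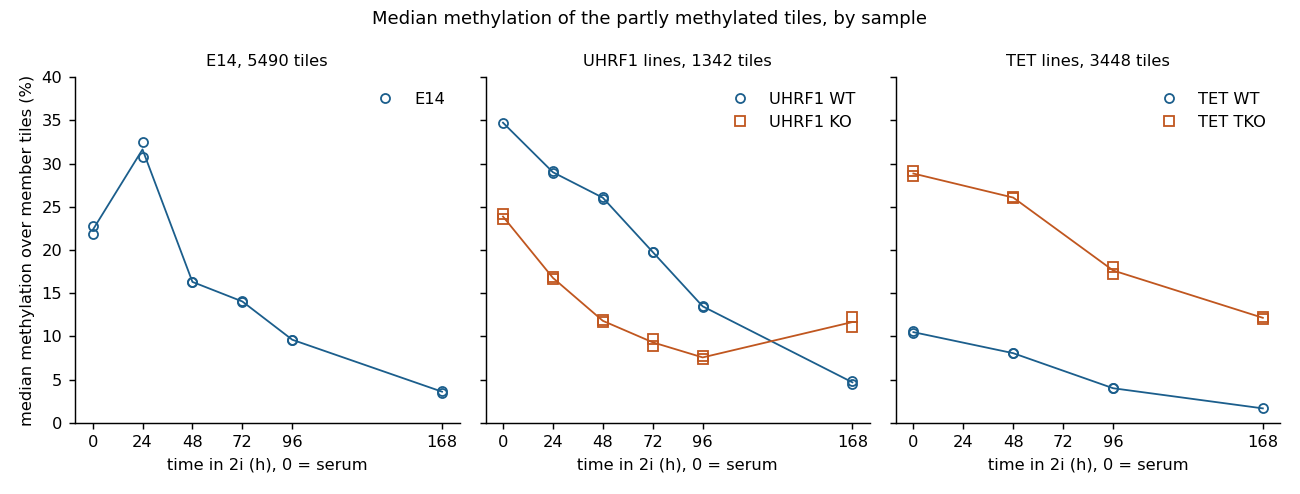
Median methylation over members in percent against hours in 2i, with serum at 0, for E14, the UHRF1 lines and the TET lines. Each symbol is 1 sample and lines join the means of a time. Both E14 samples at 24 h lie above serum, UHRF1 KO lies below UHRF1 WT up to 96 h and above it at 168 h, and TET TKO lies above TET WT at each of its 4 times.

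Tested tile by tile, the number of members called lower in UHRF1 KO grew with time in 2i up to 72 h. It was 247 of 1342 in serum (18.4%, where 2.57% of all 22700 tiles were called lower), 381 at 24 h (28.4% against 5.59%) and 513 at 48 h (38.2% against 7.92%). It reached 623 at 72 h (46.4% against 9.3%) and was 228 at 96 h (17.0% against 6.25%). Members called higher in UHRF1 KO numbered 19 in serum (0.233% of all tiles) and 11 at 24 h (0.101% of all tiles). Later they were 10 at 48 h (0.0705%), then 6 (0.0793%) and 5 (0.0837%) for the 72 h and 96 h samples. The size of the difference did not grow alike. Its median over members was -9.61 points in serum and reached -13.2 with 48 h of 2i. By 72 h this median had shrunk to -9.51, although more members were called. The 72 h libraries include the deepest of the set, with medians of 558 and 414 calls per member in replicate 1 of WT and KO, so the counts of different times do not rest on the same depth. In serum UHRF1 WT is 1 sample, assumed to vary like the other groups.

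The count at 96 h depended on the test. It was 233 in both directions together in the quasi-binomial fit, 16 in limma on log2 ratios, and 147, 151 and 154 without replicate 1 of UHRF1 WT, replicate 1 of UHRF1 KO and replicate 2 of UHRF1 KO. The median difference over members was -5.62 points at 96 h, against -9.51 at 72 h and -13.2 at 48 h.

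Among the 1462 measured tiles of 40% or more, 16.3% were called lower in UHRF1 KO in serum, below the share of members. Afterwards the share in this class was larger than that of members. It was 54.4% at 24 h and 81.3% at 48 h, then 96.2% for the 72 h samples and 78.4% for those of 96 h. Relative to its own mean at 24 h, UHRF1 WT had 89.3% left over members at 48 h, 69.1% at 72 h and 49.7% at 96 h. UHRF1 KO had 73.1%, 57.7% and 48.3% left at these times. Relative to the serum mean, 42.3% was left at 96 h in UHRF1 WT (1 serum sample) and 34.7% in UHRF1 KO. A test of whether the change from 24 to 96 h differed between the genotypes called 0 members in the quasi-binomial fit (0.0132% of all tiles), with 133 at an unadjusted p under 0.05. Whether the changes from 24 h to 48 and 72 h differed between genotypes was not tested.

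The 3 members named for the lowest level in UHRF1 KO relative to UHRF1 WT at 96 h were high in UHRF1 WT. Such a difference requires a level in UHRF1 WT at 96 h of at least its own size. At chr9:75230501-75231000 UHRF1 WT read 89.9% in serum and 70.3% and 68.4% at 96 h, and UHRF1 KO read 48.0% and 56.2% in serum and 8.20% and 3.12% at 96 h. E14 read 33.3% and 27.6% in serum, by the choice, and 66.7% and 50.8% at 24 h in the same tile. At chr13:99922001-99922500 UHRF1 WT had 64.5% in serum and 69.7% and 66.7% at 96 h, while UHRF1 KO had 37.9% and 29.9% in serum and 9.09% and 16.4% at 96 h. The third, chr6:136765001-136765500, had 79.1% in UHRF1 WT serum and 24.3% and 23.1% in E14 serum. The pooled differences at 96 h were -62.9, -55.7 and -44.6 points, with adjusted p of 1.48e-08, 4.84e-08 and 5.55e-05 in the quasi-binomial fit.

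The 3 members named for a higher level in UHRF1 KO were low in UHRF1 WT at every time. At chr7:7252001-7252500 UHRF1 WT had 1.11% in serum and 0% and 0% at 96 h, and UHRF1 KO had 62.0% and 56.0% in serum and 38.5% and 41.6% at 96 h. At chr14:79701001-79701500 UHRF1 WT had 8.16% in serum and 2.56% and 0.761% at 96 h, and UHRF1 KO had 30.5% and 47.8%, then 26.7% and 24.1%. In both tiles TET TKO was low too, at 1.30% and 1.72% and at 2.48% and 4.61% in serum, where TET WT had 26.6% and 23.3% and 18.4% and 14.6%. The third tile, chr1:154233501-154234000, was described above for its mixed positions, and read 0% and 0% in UHRF1 WT and 19.5% and 19.8% in UHRF1 KO at 96 h. The pooled differences were 39.9, 23.7 and 19.6 points, with adjusted p of 1.04e-25, 6.56e-12 and 1.88e-07 in the quasi-binomial fit.

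At 168 h the order of the genotypes was reversed over members. Of 1342 members, 94 were called higher in UHRF1 KO (7.004%, where 0.762% of all tiles were called higher) and 4 lower (0.304% of all tiles). The pooled level was higher in UHRF1 KO in 1176 members (87.6%, against 63.4% of all tiles), with a median difference of 5.65 points. In 1010 members (75.3%, against 39.8% of all tiles) it was lower in UHRF1 KO at 96 h and higher at 168 h. Both UHRF1 KO libraries of 168 h stood apart, with 50.6% and 49.5% of their positions read once, where the other usable UHRF1 libraries had at most 30.8%, and the part of this in the result was not tested. The count of calls is small and rests on single libraries, because without 1 sample it was 5 (UHRF1 WT replicate 1), 26 (UHRF1 WT replicate 2), 25 (UHRF1 KO replicate 2) or 73 (UHRF1 KO replicate 1), and 58 members were called by limma on log2 ratios. Members were covered by medians of 41 and 95 calls in UHRF1 KO and 88 and 52 calls in UHRF1 WT at that time.

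Within the lines, UHRF1 WT fell in 1133 members between 24 and 168 h (84.4%, where 13% of all tiles were called lower). UHRF1 KO fell in 30 (2.24% against 1.74%). Of tiles of 40% or more, 93.4% were called lower in UHRF1 WT and 23.9% in UHRF1 KO. From 96 to 168 h 3 members were called in UHRF1 KO, all of them higher (0.0485% of all tiles), and in 603 members both 168 h samples were above both 96 h samples (27.1% of all tiles). The test of the change itself, added after the values had been seen, found that the change from 96 to 168 h differed between genotypes in 328 members (24.4%, against 4.35% of all tiles). In 327 of those the change in UHRF1 KO was the higher on the logit scale.

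Tiles of 40% or more in E14 serum moved the same way in UHRF1 KO, with medians of 32.7% and 32.2% at 96 h and 41.2% and 41.1% at 168 h. In UHRF1 WT they had 41.5% and 39.5% at 168 h. In that class 3.97% of tiles were called lower in UHRF1 KO at 168 h and 3.83% higher.

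In the TET lines the members were higher without TET enzymes at each time. The median over 3448 members in TET WT was 10.4% and 10.6% in serum, 8.06% and 8.05% at 48 h, 4.00% and 4.00% at 96 h, and 1.67% in the 168 h sample. In TET TKO it was 28.6% and 29.1% in serum, 26.03% and 26.09% at 48 h, 18.01% and 17.24% at 96 h, and 12.1% and 12.2% at 168 h. The median of each TET TKO sample was above those of TET WT at its time. After 168 h of 2i both TET TKO samples still stood above TET WT in serum.

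The members called higher in TET TKO were 2209 in serum (64.1%, where 22.1% of all 39358 tiles were called higher), 1964 at 48 h (57.0% against 14.5%), 1772 at 96 h (51.4% against 13.6%) and 1439 at 168 h (41.7% against 16.8%). Members called lower numbered 15 in serum (0.163% of all tiles) and 12 after 48 h (0.201%). They were 9 after 96 h (0.399%) and 8 after 168 h (0.3%). TET WT at 168 h is 1 sample, assumed to vary like the other groups. Over the 3 times with 2 samples each, 1364 members were called higher each time (39.6%, against 9.58% of all tiles). With 168 h included there were 1039 (30.1% against 8.15%), and 2636 were called at 1 time or more (76.5% against 26.8%). At 96 h the count in both directions was 1781, and 1134 without replicate 1 of TET TKO. Among the 9566 measured tiles of 40% or more, 56.9% were called higher in serum, 29.3% at 48 h and 31.4% at 96 h. At 168 h the share was 49.98%, above that of members.

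**Figure D4:**
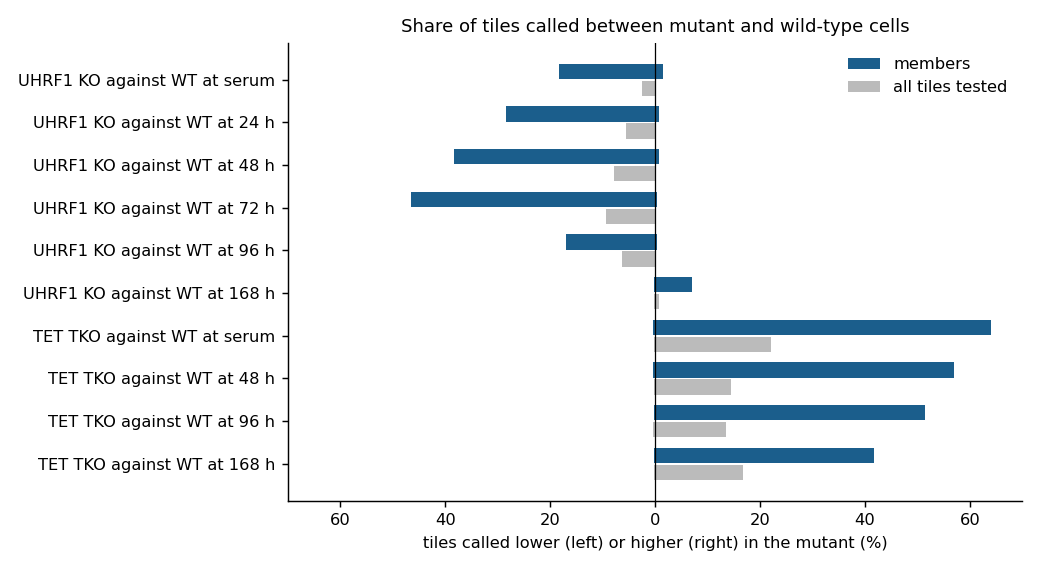
Percent of tiles called lower (left of 0) or higher (right of 0) in the mutant than in its wild type by the quasi-binomial fit, for members (dark) and for all tiles tested in the set (grey). Members are called lower in UHRF1 KO in 18.4% to 46.4% from serum to 72 h and higher in TET TKO in 41.7% to 64.1%.

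Members did lose methylation in 2i without TET enzymes. Between serum and 96 h, 939 members fell in TET TKO (27.2%, where 20.9% of all tiles were called lower) and 664 in TET WT (19.3% against 14.6%). Of tiles of 40% or more, 72.0% were called lower in TET TKO and 50.8% in TET WT. The mean over members at 96 h was 63.9% of serum in TET TKO and 47.8% in TET WT. For tiles of 40% or more the values were 70.3% and 72.6%. The change from serum to 96 h differed between genotypes, on the logit scale, in 10 members (0.290%, against 0.221% of all tiles), with 498 at an unadjusted p under 0.05. The median of this logit difference (TET TKO minus TET WT) was 0.30 over members and -0.24 over all tiles.

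TET TKO after 168 h was also set beside TET WT in serum, a comparison added after the values had been seen. In TET TKO 376 members were higher (10.9%, where 2.19% of all tiles were called higher) and 194 lower (5.63% against 14.1%). Of tiles of 40% or more 54.1% were lower in TET TKO at 168 h and 3.81% higher.

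The 3 members named for the largest gain in TET TKO in serum were low in TET WT, which differences of that size require. At chr11:97929001-97929500 TET WT read 9.72% and 5.45% in serum, and TET TKO 100% and 88.5%. In the adjoining tile chr11:97928501-97929000 TET WT read 8.91% and 2.38%, and TET TKO 83.2% and 83.3%. At chr14:31243001-31243500 TET WT read 11.4% and 2.50%, and TET TKO 90.5% and 87.9%. E14 had serum means of 39.3%, 33.3% and 33.7% in these 3 tiles, within the range that chose the members.

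Those 3 tiles also stayed high in TET TKO. At 168 h they had 67.4% and 77.5%, 64.4% and 67.1%, and 50.7% and 63.6%, where the TET WT sample had 0%, 0.730% and 0%. At 96 h the tile chr11:97929001-97929500 had 3.09% and 1.03% in TET WT and 79.8% and 58.6% in TET TKO, with fewer than 30 calls in 1 sample. Among members with 30 or more calls in each sample compared, the largest difference at 96 h was at chr9:114422001-114422500, with 0.962% and 0% in TET WT and 62.9% and 56.1% in TET TKO. At chr7:86670501-86671000 TET WT had 10.8% and 8.91% and TET TKO 63.9% and 74.5%, and at chr19:38458001-38458500 the samples read 1.71% and 4.67% against 63.3% and 55.3%.

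Tiles lower in TET TKO were few and included the same chr7:7252001-7252500. At chr11:24496501-24497000 TET WT had 83.3% and 83.1% in serum and TET TKO 34.0% and 13.5%. At chr14:44877001-44877500 the levels were 35.6% and 32.6% against 5.06% and 6.25%. At chr6:81915501-81916000 TET WT had 15.3% and 19.6% at 96 h, where TET TKO had 0% and 0%. In that tile UHRF1 WT had 12.5% in serum and 0% and 0% at 168 h, and E14 still had 17.4% and 21.1% at 168 h.

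The lines differed in how methylated the members were to begin with, where only the E14 level was set by the choice. Over the 1329 members measured in all 3 sets, the serum medians were 18.6% and 19.5% in E14, 34.6% in UHRF1 WT, 23.3% and 24.1% in UHRF1 KO, 9.09% and 9.67% in TET WT, and 24.4% and 24.8% in TET TKO. In TET WT serum 1732 of 3448 members (50.2%) were also from 10% to under 40%, and 1637 were under 10%. In TET TKO serum 2137 (62.0%) were from 10% to under 40%, and 1039 had 40% or more. E14 and the UHRF1 lines share a background strain, and the TET lines have another. Between E14 and UHRF1 WT, line and library cannot be told apart, and between those and TET WT strain is added.

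Members measured in both mutant sets were compared for their calls. Of 617 called lower in UHRF1 KO at 72 h, 473 (76.7%) were called higher in TET TKO in serum, and these were 56.2% of the 842 such members. Over all 1329 members 63.4% had the TET call and 46.4% the UHRF1 call. At 96 h 151 members were shared, 67.1% of the 225 lower in UHRF1 KO and 22.9% of the 660 higher in TET TKO, where 49.7% and 16.9% of all 1329 members had the other call. At 168 h 28 were shared, 29.8% of the 94 higher in UHRF1 KO and 5.45% of the 514 higher in TET TKO. These shares were below the 38.7% and 7.07% of all 1329 members with the other call, whereas those of the earlier overlaps were above. The overlaps were not tested.

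ChIP-BS gave a readout of the members in libraries that took no part in their choice. In input chromatin from serum 28.6% and 27.7% of calls over members were methylated, and in input from 2i 7.77% and 7.47%. In the H3K9me2-bound fraction the values were 49.9% and 49.3% in serum and 16.9% and 18.1% in 2i. The bound libraries were above the input libraries in both media without overlap, and those of serum above those of 2i. With 2 libraries against 2, no test was made.

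**Figure D5:**
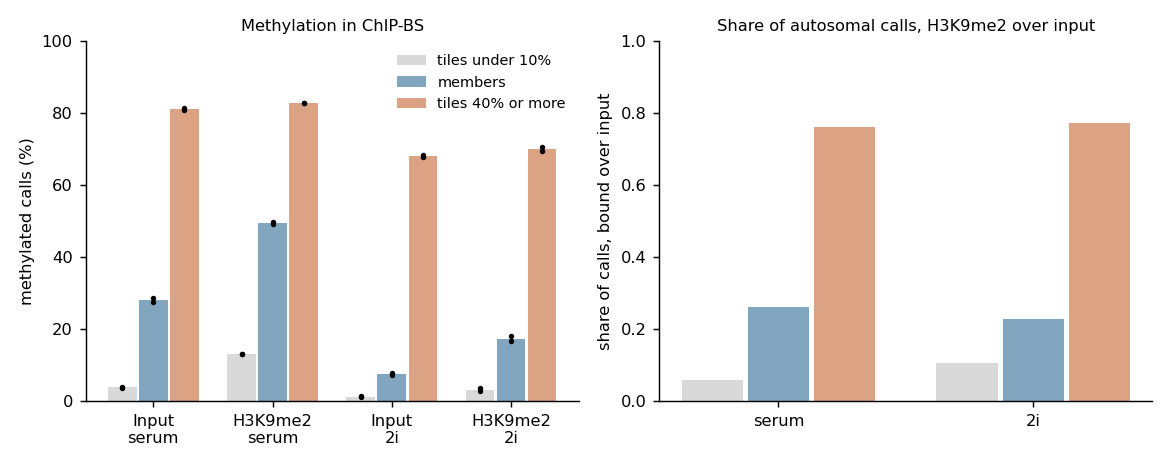
Left, percent of methylated calls in ChIP-BS over tiles under 10%, members and tiles of 40% or more, with dots for the 2 libraries and bars for their mean, at all positions, those with many reads included. Right, mean share of all autosomal calls that fell in each class, H3K9me2-bound over input. Over members the bound fraction is more methylated than input in serum and in 2i, and their share of calls in it is 0.262 and 0.229 of that in input.

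The same tiles took up little of the bound chromatin. Members held 0.119% to 0.130% of autosomal calls in the serum input libraries and 0.0318% to 0.0334% in the bound libraries, a ratio of means of 0.262. The ratio was 0.0601 for tiles under 10% and 0.761 for tiles of 40% or more in serum. In 2i the ratio for members was 0.229. Each library held only 4954 to 25022 calls over all members, so single tiles could not be described.

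For tiles of 40% or more the result depended on positions with many reads. Over all positions the bound and input fractions had 83.0% and 81.2% in serum and 70.1% and 68.2% in 2i. When positions read over 20 times were left out, the bound libraries had 83.6% and 83.7% in serum where input had 76.4% and 74.5%, and in 2i 49.4% and 49.6% where input had 38.6% and 38.7%. Such positions also held most of the calls of this class, whose share in bound chromatin from serum was then 0.512% and 0.515% in place of 4.90% and 4.39%. The percent of methylated calls over members was the same with and without these positions. Tiles under 10% had 13.2% in the bound fraction and 3.88% in input in serum. When the percent was averaged over the 27 members with 5 or more calls in every library, members had 51.0% bound and 41.2% in input in serum, and 17.2% bound and 17.8% in input in 2i. The difference in 2i was thus not seen in those few members.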

How the data were processed

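The RRBS and ChIP-BS files hold deposited counts of methylated and of unmethylated calls at single cytosines. The authors' percent column beside them was not needed, as the percent was recomputed. Trim Galore 0.3.5, Bismark 0.12.3 and Bowtie2 are listed in the submitters' processing notes. Positions run past the end of chromosome 1 of GRCm38, so the build was read as NCBIM37, and tiles carry no gene annotation or sequence here. For RNA-seq the authors deposited normalized log2 values per gene. They served only as a check of markers. No column of another sample was found (0), and the ChIP-seq bins, in another build, were not used.

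Counts were summed over 500-bp tiles and percentages computed from the sums. The UHRF1 WT serum replicate 2 file held 6 positions and was left out. All groups of a set entered 1 quasi-binomial fit per tile, with dispersion moderated by squeezeVar of limma 3.58.1 (R 4.3.3) and a quasi-likelihood F test. P-values were adjusted by Benjamini-Hochberg over all autosomal tiles of the set, and tiles were called at 0.05 and 10 points, since members start low. The prior dispersion was 1.43 in E14, 1.62 in UHRF1 and 1.42 in TET, with 37.6, 46.5 and 45.1 prior degrees of freedom. On simulated counts with 100 members changed by 15 points and 100 by 30, the fit recovered 31 and 74 for E14 at 168 h against 24 h (55777 tiles, 12 false calls). At 96 h in the UHRF1 lines it recovered 57 and 98 (22700 tiles, 0 false calls), and in serum in the TET lines 40 and 93 (39358 tiles, 2 false calls). All other simulated tiles were unchanged, whereas 47.3% of all tiles were called lower in the real E14 contrast and 22.1% higher in the real TET contrast. The adjustment depends on that share, so these rates do not give the recovery in the real contrasts. The Wilson interval treats tiles as independent draws and does not cover the effect of the depth asked for. Reads copied by PCR and calls of 1 read are not independent either.

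Tiles were named by a fixed rule. For 4 comparisons it took up to 3 called members with the largest difference each way, without overlap between groups and with 30 or more calls in each sample. It also took 2 members each with the largest and smallest SD between positions, and the tiles nearest the thresholds. None on chromosome 18 was named. The members, lists and tests were chosen with earlier results of these data known. Alternatives covered the calls and positions per tile, the tile grid, the difference required, limma on log2 ratios of counts (1 added to each), fits of 2 groups, single samples left out and the replicate block.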

Additional observations from a re-analysis of the deposited data

Results flagged for a closer look

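The change between serum and 24 h had opposite directions over the same 1342 members in E14 and UHRF1 WT, both of background strain E14. The median was 7.66 points higher at 24 h in E14 (both 24 h samples above both serum samples) and 5.73 points lower in UHRF1 WT (a difference of -5.73, both 24 h samples below the single serum sample). The difference between the lines was not tested, since they were fitted in separate sets and the serum group of UHRF1 WT is 1 sample.

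The test of the difference between UHRF1 genotypes called 328 members for the change from 96 to 168 h and 420 for the change from 24 to 168 h. The corresponding shares of all tiles were 4.35% and 5.06%. Both tests rest on the 168 h libraries, where those of UHRF1 KO stood apart with 50.6% and 49.5% of positions read once.

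Between the TET genotypes, the change from serum to 96 h differed in 10 members (0.290%, close to the 0.221% of all tiles), 7 with the higher change in TET TKO and 3 with the lower.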

How the results depend on the processing

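Of 101 recomputed counts and values that answer a comparison, 77 stayed within the limits set for them. In 2i ChIP-BS the bound fraction had 17.5% against 7.62% in input. Averaging tile percentages over only the 27 members with 5 or more calls in every library gave 17.2% against 17.8% (SD 2.9 and 1.4), without that order. That alternative changed both the tiles used and the averaging. With 50 calls per tile in place of 20, fewer tiles are tested by construction. The members were then 2603, and those called were 2386 for E14 at 168 h against 24 h, 35 and 25 for UHRF1 KO against WT at 96 and 168 h, and 611 and 470 for TET TKO against WT in serum and at 96 h. A required difference of 20 points gave 88 and 34 for UHRF1 KO at 96 and 168 h, and 1384 and 873 for TET TKO in serum and at 96 h. Limma on log2 ratios gave 16 and 58 for UHRF1 KO at 96 and 168 h, and the cause was not tested.

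Leaving out single samples gave 5415 to 5574 members, 4721 to 4889 calls for E14 at 168 h against 24 h, 147 to 190 and 5 to 73 for UHRF1 KO at 96 and 168 h, and 1771 to 1984 and 1134 to 1662 for TET TKO in serum and at 96 h. The lone sample of a group was then assumed to vary like the other groups. Pairing by replicate number was not detected, as deviations of same-numbered samples correlated by at most 0.0459 over tiles. In E14 serum the 2 samples differed by a median of 4.31 points over members, where counting alone gives 3.70. With deviations so close to counting error, pairing could go unseen. With the replicate block the 22 counts of calls stayed within 1.5 times, for example 4991 for E14 at 168 h against 24 h, 232 and 91 for UHRF1 KO at 96 and 168 h, and 2230 for TET TKO in serum. The single member called higher in E14 at 168 h than at 24 h, chr6:4697001-4697500, was not called with the block (adjusted p 0.0631 in the quasi-binomial fit). The tests of UHRF1 genotype by time at 168 h, of TET TKO at 168 h against TET WT serum and the medians at shared positions were added after the data had been seen.

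The share of members with both extremes was 10.0% with 5 calls per position and 4.03% with 20. In ChIP-BS, averaging tile percentages over 27 members gave 51.0% in the bound and 41.2% in the input fraction of serum. Members near the thresholds, and differences of about 10 points at 20 calls per tile, are limited by depth.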
